A study of Mus musculus with 16 samples.

Results

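Intermediate filament genes were followed in quadriceps muscle of *Mtm1* knockout mice, a model of myotubular myopathy, with and without tamoxifen. The genes were chosen by symbol, under a rule that uses no measured value but was written with earlier results of these data known, as the intermediate filaments of muscle and of simple epithelia and their partners, and all 10 of 10 were found among 41388 genes. They were *Des*, *Synm*, *Sync*, *Vim*, *Nes*, *Krt8*, *Krt18*, *Krt19*, *Lmna* and *Plec*. The series held 16 RNA-seq libraries of C57BL/6 mice, 4 in each group. WT mice were wild type and received no tamoxifen, and WT + TAM mice (WT_TAM in the plots) were wild type with tamoxifen, an estrogen receptor ligand, in the diet at 40 mg/kg from day 21. *Mtm1* KO mice lacked exon 4 of *Mtm1*, removed by homologous recombination, and received no tamoxifen, and *Mtm1* KO + TAM mice (KO_TAM in the plots) lacked it and were given tamoxifen at the same dose from the same day. The labels give collection at postnatal day 36, the supplement of the study gives a slightly younger age for the RNA samples, and per the study the mice were littermates and the untreated ones were given placebo. A library came from whole muscle, so that fewer cells of a type and less RNA per cell cannot be told apart.

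Intermediate filaments are rope-like polymers that give cells mechanical strength. In muscle fibers desmin surrounds the Z discs and ties myofibrils to each other, to the membrane and to the nucleus, synemin and syncoilin join desmin, and plectin crosslinks the network. Vimentin and nestin are known for immature and regenerating muscle fibers, and vimentin is also abundant in fibroblasts, endothelial cells and leukocytes. Keratins 8 and 18 form obligate pairs in simple epithelia and have also been described at the costameres of muscle fibers, and lamins A and C, both made from *Lmna*, line the inside of the nuclear envelope.

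The keratin partners that moved together are neighbors in the genome. *Krt8* (ENSMUSG00000049382) lies on the minus strand of chromosome 15 from 101996698 to 102004482 and *Krt18* (ENSMUSG00000023043) on the plus strand from 102028180 to 102032027 (GRCm38, GENCODE vM21). They point away from each other across 23697 bases in which the annotation places 0 whole genes. *Des* (ENSMUSG00000026208) spans 75360329 to 75368579 on the plus strand of chromosome 1 with 9 exons in transcript Des-201, and *Synm* (ENSMUSG00000030554) spans 67730160 to 67759742 on the minus strand of chromosome 7 with 5 exons in Synm-201. The promoters of these 4 genes are shown because the keratin pair had the largest fold changes and because *Synm* and *Des*, whose products copolymerize, had fold changes of opposite sign. Each sequence is the RefSeq window of 250 bases before to 50 bases after the transcription start site (GRCm38.p6), read on the strand of the gene, with capitals for E-boxes (CANNTG, which muscle regulatory factors such as MyoD bind) and for TATAAA.
Krt8, chr15:102004293-102004592, minus strand: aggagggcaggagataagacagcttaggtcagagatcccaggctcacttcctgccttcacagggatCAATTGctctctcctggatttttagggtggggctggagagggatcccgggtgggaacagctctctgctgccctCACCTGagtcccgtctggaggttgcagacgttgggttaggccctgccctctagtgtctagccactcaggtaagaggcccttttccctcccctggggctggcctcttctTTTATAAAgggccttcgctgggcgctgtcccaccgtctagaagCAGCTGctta
Krt18, chr15:102027966-102028265, plus strand: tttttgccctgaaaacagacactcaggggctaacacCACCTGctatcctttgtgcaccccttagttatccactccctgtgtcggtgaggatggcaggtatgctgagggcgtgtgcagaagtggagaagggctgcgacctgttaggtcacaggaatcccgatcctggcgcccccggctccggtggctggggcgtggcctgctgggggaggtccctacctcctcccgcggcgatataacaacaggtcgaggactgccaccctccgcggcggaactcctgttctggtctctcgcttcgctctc
Des, chr1:75360042-75360341, plus strand: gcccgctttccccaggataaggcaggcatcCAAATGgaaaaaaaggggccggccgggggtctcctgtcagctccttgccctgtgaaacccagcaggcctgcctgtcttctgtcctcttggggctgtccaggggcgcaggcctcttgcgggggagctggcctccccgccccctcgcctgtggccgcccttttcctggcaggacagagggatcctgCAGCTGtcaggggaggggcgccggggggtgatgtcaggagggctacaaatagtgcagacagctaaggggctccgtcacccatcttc
Synm, chr7:67759693-67759992, minus strand: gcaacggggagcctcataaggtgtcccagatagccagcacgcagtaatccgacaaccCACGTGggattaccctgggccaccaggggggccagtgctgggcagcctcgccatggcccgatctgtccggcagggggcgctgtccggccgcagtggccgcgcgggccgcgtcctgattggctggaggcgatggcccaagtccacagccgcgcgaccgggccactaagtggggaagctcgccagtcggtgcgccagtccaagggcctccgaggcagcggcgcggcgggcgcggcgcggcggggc

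The *Krt8* window held 3 E-boxes and 2 overlapping TATAAA matches on opposite strands, and the *Krt18* window held 1 E-box and 0 TATAAA. The *Des* window held 2 E-boxes, the nearer at position -36 from the start site, and the *Synm* window held 1. An E-box was present in 72.3% of 32534 windows of the same length and TATAAA in 13.6%, both strands searched, so an E-box sets none of these windows apart. AP-1 motifs (TGANTCA, in 7.79% of all windows), CArG boxes (1.64%), MEF2 boxes (3.16%) and the estrogen response element (0.0707%) had 0 matches in these 4 windows. A window was given for 8 of the 10 genes, and a match to letters is a description and not a binding site.

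Libraries held 25116179 to 29847222 counts. The study used 14 of them and left out the libraries labelled WT 1 and KO 12, and the comparisons here did the same. *Mtm1* was checked against the labels. The library labelled WT 1 had 74 counts of *Mtm1*, where the other WT libraries had 341 to 369 and the KO libraries 63 to 85, and thus went against its label. Levels are RPKM, counts divided by gene length and library total, and fold changes are log2 values ± SE from edgeR's quasi-likelihood test on counts with TMM scaling, called at an adjusted p of at most 0.01. In the libraries compared, 23.6% to 27.6% of WT counts and 16.9% to 18.8% of *Mtm1* KO counts came from the top 10 genes. When counts were divided by library totals alone, fold changes in *Mtm1* KO against WT had a median of 0.33 on the log2 scale in place of 0.02, and RPKM carries this shift.

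The first question was what the deletion did in untreated mice. Of the 10 genes 5 were called and all 5 rose in *Mtm1* KO (*Krt18*, *Krt8*, *Nes*, *Lmna* and *Des*), while 3.6% of all genes tested were called and 1.91% were called as higher. *Krt8* and *Krt18* passed the filter on low counts only through the KO libraries, where they are high, and of the other 8 genes 3 were called. Over all genes 282 of the 531 calls were higher, and with scaling by library size 1023 of 1163. The RPKM values of the KO and WT groups did not overlap for 7 of the 10, with 6 higher and 1 lower, but this was true of 47.2% of all genes. The median log2 fold change of the 10 was 0.78, beside 0.02 over all genes tested. *Krt8* and *Krt18* are part of the 6 higher genes and of this median. The 10 genes changed unequally, from a log2 fold change of 5.22 for *Krt18* to -0.82 for *Synm*.

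The second question was whether the deletion left the same mark in treated mice, in libraries that share none with the first comparison. In *Mtm1* KO + TAM against WT + TAM 6 of the 10 genes were called, the 5 above and *Vim*, and all 6 rose. Without *Krt8* and *Krt18*, which again passed the filter through the KO libraries alone, 4 of 8 were called. Of all genes tested 6.72% were called and 3.42% were called as higher, 498 of 979 calls, against 1657 of 1874 with scaling by library size. RPKM did not overlap for 6 of the 10 genes, where this was true of 30.1% of all genes. The median log2 fold change was 0.75, beside -0.01 over all genes. Again *Krt8* and *Krt18* are part of the 6 genes without overlap and of the median.

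**Figure D1:**
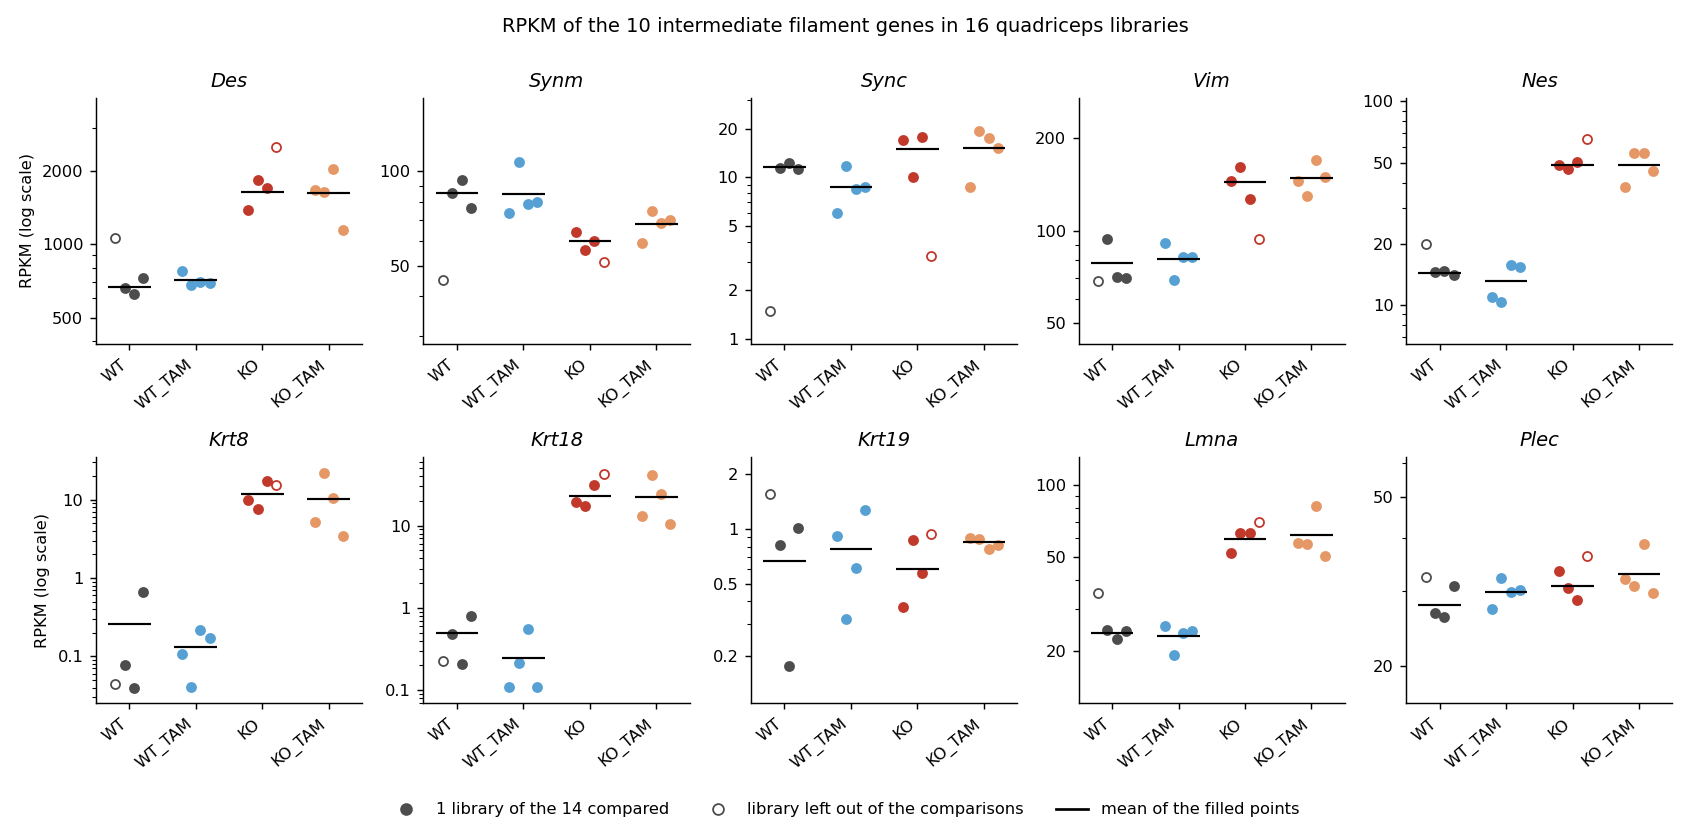
RPKM (vertical log axis) of the 10 genes in each of the 16 libraries, by group. Filled points are the 14 libraries compared, open points the libraries labelled WT 1 and KO 12, and bars the means of the filled points. Every KO and KO_TAM library compared lies above every WT and WT_TAM library for *Des*, *Vim*, *Nes*, *Krt8*, *Krt18* and *Lmna*.

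Desmin itself, the main cytoplasmic filament of muscle, was already abundant and rose. *Des* was at 663, 624 and 725 RPKM in WT and at 1377, 1841 and 1696 in *Mtm1* KO. All 3 KO libraries lay above all 3 WT libraries, and the log2 fold change was 0.98 ± 0.17 (adjusted p = 0.00832). In WT + TAM *Des* was at 779, 678, 702 and 697 RPKM, and in *Mtm1* KO + TAM at 1665, 1637, 2045 and 1148. The groups again did not overlap, with a log2 fold change of 0.90 ± 0.16 (adjusted p = 0.00416). The size held when single libraries were left out, 0.91 to 1.10 in untreated and 0.82 to 1.02 in treated mice. The call did not, since *Des* was close to the threshold. It was lost without WT 2 (adjusted p = 0.0370), WT 3 (0.0224), WT 4 (0.0321), KO 10 (0.0292) or KO 11 (0.0280), and in treated mice without WT + TAM 6, 7 or 8 or without KO + TAM 13, 14 or 15 (0.0110 to 0.0163).

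Synemin, which cannot form filaments alone and copolymerizes with desmin, had a fold change of the opposite sign that just missed the threshold. *Synm* was at 85.1, 94.2 and 76.4 RPKM in WT and at 64.1, 56.3 and 59.9 in *Mtm1* KO, and the groups did not overlap. The log2 fold change was -0.82 ± 0.15, and its adjusted p of 0.0107 missed the threshold. In WT + TAM *Synm* was at 73.9, 107, 78.8 and 79.7 RPKM and in *Mtm1* KO + TAM at 59.2, 74.7, 68.4 and 69.8. Those groups overlapped in RPKM, with a log2 fold change of -0.60 ± 0.13 (adjusted p = 0.0115). The value was negative under each alternative and with each library left out, and it was called under 5 of 10 alternatives in untreated and 3 of 10 in treated mice. With scaling by library size it was -0.50 (adjusted p = 0.0227) and -0.32 (adjusted p = 0.106).

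The 2 genes were therefore compared within each library, where scaling cancels. The log2 ratio of *Synm* to *Des* RPKM was -2.98 ± 0.26 (SD, n = 3) in WT and -4.76 ± 0.31 (SD, n = 3) in *Mtm1* KO. The difference of -1.78 had a p of 0.1 in a two-sided exact permutation test, the smallest that 3 libraries against 3 allow. In WT + TAM the log2 ratio was -3.09 ± 0.31 (SD, n = 4) and in *Mtm1* KO + TAM -4.55 ± 0.39 (SD, n = 4). This difference of -1.47 had a p of 0.0286 in the same exact test, the smallest that 4 against 4 allow. Neither the ratio nor the shares below tell a fall of *Synm* from a rise of *Des*. With scaling by library size *Des* had a log2 fold change of 1.29 and *Synm* -0.50 in untreated mice. In treated mice these were 1.19 and -0.32. Among the RPKM of the 8 cytoplasmic filament genes (all but *Lmna* and *Plec*), *Synm* made up 9.94% ± 1.53 (SD, n = 3) in WT and 3.14% ± 0.61 (SD, n = 3) in *Mtm1* KO, and *Des* 77.8% ± 2.47 and 84.2% ± 2.13 (SD, n = 3 each). *Ttc23* lies over the whole of *Synm* on the opposite strand. The strand setting of the counting is not given in the sources used here, but *Ttc23* held 2977 counts over all libraries and *Synm* 245729.

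**Figure D2:**
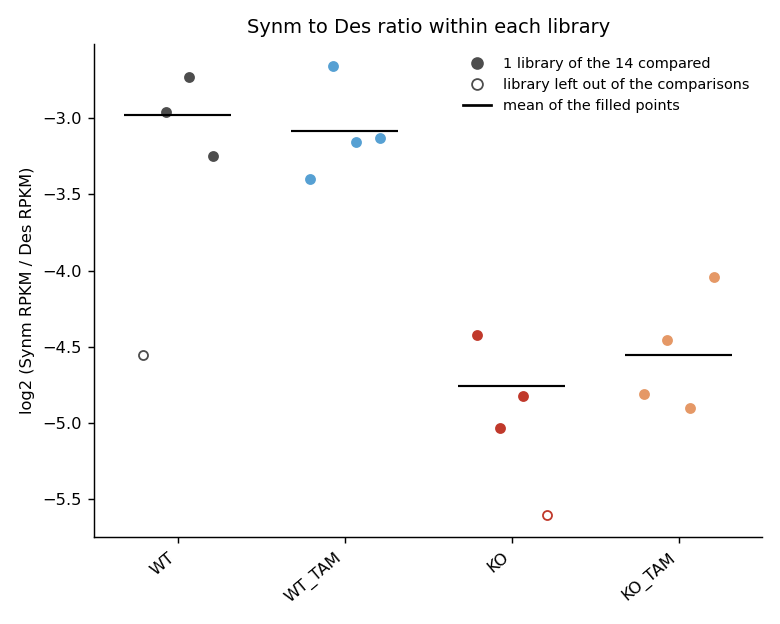
The log2 ratio of *Synm* RPKM to *Des* RPKM in each library (vertical axis), by group, with open points for the libraries left out and bars for the mean of the filled points. Among the libraries compared, every WT and WT_TAM value is above every KO and KO_TAM value, while the library labelled WT 1 lies at -4.55, among the KO libraries.

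Syncoilin, a desmin partner tied to the dystrophin complex, was not called in either comparison. *Sync* was at 11.4, 12.3 and 11.3 RPKM in WT and at 17.0, 10.1 and 17.9 in *Mtm1* KO (log2 fold change 0.05 ± 0.22, adjusted p = 0.906). In WT + TAM it was at 6.02, 11.9, 8.46 and 8.73 RPKM and in *Mtm1* KO + TAM at 8.79, 19.5, 17.5 and 15.2 (log2 fold change 0.51 ± 0.22, adjusted p = 0.140). The KO groups spread widely and overlapped with their controls. *Rbbp4* overlaps the gene from the opposite strand, holds 24.0% of the 50-base exon stretches of *Sync* and had more counts, which makes *Sync* uncertain.

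Nestin, a large filament protein of immature fibers and of the neuromuscular and myotendinous junctions, rose in both comparisons. *Nes* (chromosome 3, 87971078 to 87980451, plus strand) was at 14.6, 14.7 and 14.03 RPKM in WT and at 49.0, 46.7 and 50.5 in *Mtm1* KO. The log2 fold change was 1.44 ± 0.12 (adjusted p = 4.59e-04), or 2.71-fold. In WT + TAM *Nes* was at 10.98, 10.3, 15.7 and 15.4 RPKM and in *Mtm1* KO + TAM at 38.0, 56.1, 56.02 and 45.5. The lowest KO + TAM value was above the highest WT + TAM value, and the log2 fold change was 1.61 ± 0.17 (adjusted p = 1.98e-04). *Nes* was called under every alternative and with any 1 library left out in both comparisons, and 0 of its 50-base stretches are shared with another gene.

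Vimentin had smaller fold changes. *Vim* was at 94.1, 70.6 and 70.3 RPKM in WT and at 145, 161 and 127 in *Mtm1* KO, with no overlap, but its log2 fold change of 0.57 ± 0.14 was not called (adjusted p = 0.0339). It was called under 3 of 10 alternatives, DESeq2 (0.55, adjusted p = 0.00384), scaling by library size (0.88, adjusted p = 0.00719) and limma with 0.1 added (0.89, adjusted p = 0.00991). In treated mice it was at 91.4, 68.9, 82.0 and 81.8 RPKM in WT + TAM and at 145, 130, 170 and 150 in *Mtm1* KO + TAM, where the log2 fold change of 0.59 ± 0.13 was called (adjusted p = 0.00891). The call was lost when any 1 library other than WT + TAM 5 was left out, with adjusted p values up to 0.0300. Since *Vim* is made by several cell types, markers of these were read beside it. Of 9 leukocyte markers 8 were higher and 0 called in *Mtm1* KO, and their summed RPKM was 177 to 258 in *Mtm1* KO and 101 to 125 in WT. Of 9 fibroblast markers tested 7 were higher and 0 called (summed RPKM 1193 to 1756 and 1039 to 1099), and of 10 endothelial markers 5 were higher and 0 called (95.3 to 129 and 79.1 to 123). In treated mice 9 of 9 leukocyte markers were higher (summed RPKM 167 to 315 in *Mtm1* KO + TAM and 49.6 to 128 in WT + TAM), 8 of 9 fibroblast markers (1164 to 1281 and 639 to 967) and 3 of 10 endothelial markers (74.6 to 98.4 and 70.7 to 86.0), with 0 called in these lists. The leukocyte and fibroblast sums did not overlap between the groups in either comparison. RPKM carries the scaling shift given above, and 47.2% of all single genes in untreated and 30.1% in treated mice did not overlap either. The part of these cell types in the level of *Vim* was not tested.

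The keratin pair showed the largest fold changes of the 10 genes. *Krt18* had 19, 8 and 31 counts in the 3 WT libraries and 713, 630 and 1246 in *Mtm1* KO, which are 0.479, 0.207 and 0.804 RPKM against 19.5, 17.3 and 31.6. The log2 fold change was 5.22 ± 0.41 (adjusted p = 2.74e-04), or 37.2-fold. In treated mice *Krt18* had 4, 8, 20 and 4 counts in WT + TAM and 538, 1704, 1026 and 417 in *Mtm1* KO + TAM, a log2 fold change of 6.19 ± 0.55 (adjusted p = 9.76e-05). The lowest of the KO libraries held over 10 times the counts of the highest WT library, and the call held under every alternative that could fit it and with any 1 library left out.

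*Krt8*, the partner that *Krt18* needs to polymerize, followed it. It had 4, 2 and 33 counts in WT and 474, 355 and 888 in *Mtm1* KO, or 0.078, 0.040 and 0.663 RPKM against 10.1, 7.56 and 17.5. The log2 fold change was 5.19 ± 0.70 (adjusted p = 0.00302). It rests on few WT counts, most of them in WT 4, and was 7.26 without that library. Without KO 11 it was 4.74 and no longer called (adjusted p = 0.0116). In treated mice *Krt8* had 5, 2, 10 and 8 counts in WT + TAM and 269, 1156, 561 and 178 in *Mtm1* KO + TAM, a log2 fold change of 5.94 ± 0.66 (adjusted p = 3.42e-04). Both keratins passed the filter on low counts through the KO libraries alone. Of the 50-base stretches of *Krt8* 29.7% also occur in another gene, 26.9% in the pseudogene *Krt8-ps*, which makes its level uncertain. For *Krt18* 0.720% occur in any other gene.

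Within the KO libraries the keratins kept step. In the 7 libraries with the deletion, treated or not, log2 CPM of *Krt8* and *Krt18* had a Pearson's r of 0.987 (two-sided exact permutation test, p = 1.98e-04, Benjamini-Hochberg adjusted over 12 relations 0.00238) and a Spearman's rho of 1 (exact p = 3.97e-04, adjusted 0.00476). Without the 2 libraries farthest from the median r was 0.973. Each of the 2 groups alone held too few libraries for a value. Over the 7 WT and WT + TAM libraries, where counts were few, r was 0.552 (exact permutation p = 0.197, adjusted 0.738) and rho 0.429 (exact p = 0.354, adjusted 0.916). The other 10 relations, of *Krt18* with *Krt19* and *Des* and of *Des* with *Synm* and *Nes* and *Vim* with *Nes* in each genotype, did not pass 0.05 after adjustment. The log2 ratio of *Krt8* to *Krt18* RPKM (0.01 added to each) in untreated mice was -1.001 ± 0.17 (SD, n = 3) with the deletion and -1.62 ± 1.18 (SD, n = 3) without it. In treated mice these were -1.28 ± 0.28 and -0.73 ± 1.23 (SD, n = 4 each), and neither genotype difference was beyond the spread (exact permutation test, p = 0.4 for both). The ratios without the deletion rest on few counts, and the differences depended on the value added. They were 0.62 in untreated and -0.55 in treated mice with 0.01 added, and 0.03 and -0.80 with 0.1 added.

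**Figure D3:**
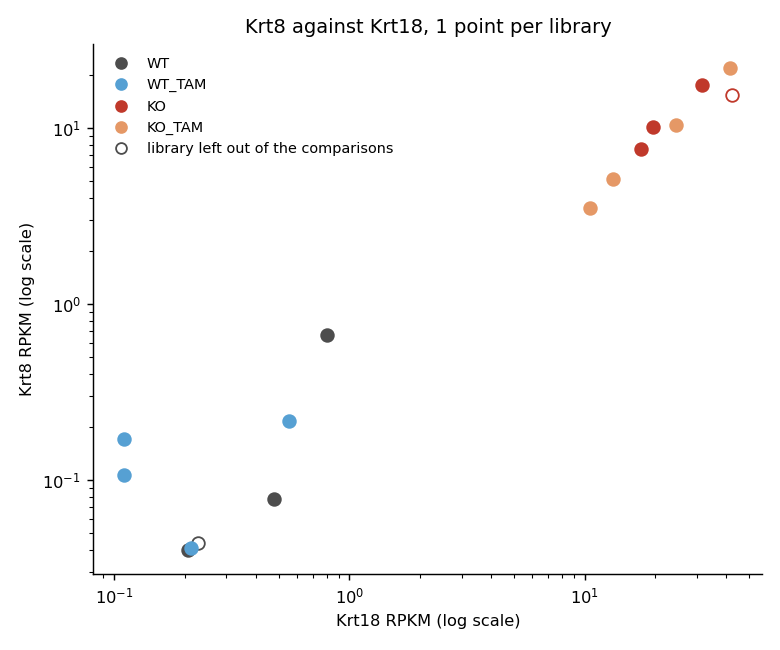
*Krt8* RPKM against *Krt18* RPKM on log axes, 1 point per library, colored by group, with open points for the libraries left out. The KO and KO_TAM libraries run from 10.5 to 42.3 RPKM of *Krt18* and from 3.49 to 21.8 RPKM of *Krt8*, and the WT and WT_TAM libraries stay below 1 RPKM of either gene.

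Keratin 19, which lacks most of the tail of other keratins and pairs with keratin 8, was not called in either comparison. *Krt19* was at 0.818, 0.176 and 1.02 RPKM in WT and at 0.371, 0.871 and 0.574 in *Mtm1* KO, which overlapped (log2 fold change -0.43 ± 0.59, adjusted p = 0.663). In treated mice the log2 fold change was -0.16 ± 0.38 (adjusted p = 0.803). Its sign changed with scaling by library size in treated mice and with limma, so no direction is given.

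Keratins as a family stayed low. Of 48 other keratins listed 46 were in the table, and 5 passed the filter in untreated and 4 in treated mice. *Krt80* was called in treated mice (log2 fold change 1.84 ± 0.34, adjusted p = 0.00470), with 0.931 to 3.37 RPKM in *Mtm1* KO + TAM and 0.500 to 0.585 in WT + TAM, and had a log2 fold change of 1.47 ± 0.49 in untreated mice (adjusted p = 0.0810). Markers of epithelium and mesothelium, which also make keratins 8 and 18, were read beside them. The summed RPKM of 14 epithelial markers was 0.692 to 1.49 in *Mtm1* KO and 0.533 to 0.972 in WT, and of the 3 tested 3 were higher and 0 called, with a median log2 fold change of 1.13. These were *Elf3* (16 to 42 counts in *Mtm1* KO and 1 to 12 in WT), *Krt7* (5 to 19 and 0 to 15) and *Cdh1*, which encodes E-cadherin (19 to 24 and 10 to 24). *Epcam* had 1 to 10 counts in *Mtm1* KO and 1 to 13 in WT, and *Krt5*, *Krt14*, *Cldn4*, *Esrp1* and *Prss8* were at 0 in all 3 KO libraries and at 0 to 7 in WT, *Krt14* at 0 in all of these. *Ovol1*, below the count filter, was lower, with 1 to 3 counts in *Mtm1* KO and 8 to 14 in WT, without overlap. The others overlapped, *Cldn7* (7 to 8 and 3 to 8), *Esrp2* (0 to 6 and 1 to 9), *Grhl2* (0 to 9 and 0) and *St14* (4 to 10 and 3 to 10). In treated mice 1 of 3 tested was higher and 0 called, and *Ovol1* had 2 to 11 counts in *Mtm1* KO + TAM and 8 to 16 in WT + TAM. Of 8 mesothelial markers *Msln*, which encodes mesothelin, rose too, from 2 to 12 counts in WT to 113 to 216 in *Mtm1* KO (log2 fold change 4.18 ± 0.48, adjusted p = 0.00141). In treated mice its log2 fold change was 2.86 ± 0.60 (adjusted p = 0.00855). The mesothelial markers *Upk3b*, *Bnc1* and *Muc16* were at 0 in all 3 *Mtm1* KO libraries, but *Bnc1* and *Muc16* were at 0 in WT as well, and *Upk3b* had 0 to 3 counts there. *Wt1* had 0 to 2 counts in *Mtm1* KO and 0 to 4 in WT, *Nkain4* 9 to 19 and 7 to 21, *Lrrn4* 1 to 4 and 0, and *Upk1b* 0 to 3 and 0. The summed RPKM of the list was 2.67 to 4.24 in *Mtm1* KO and 0.239 to 0.806 in WT, a sum that *Msln* dominates in *Mtm1* KO. *Msln* alone was at 2.055 to 3.627 RPKM in *Mtm1* KO and 0.034 to 0.2 in WT.

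Markers of immature fibers moved too. Of 9 such markers tested 8 rose in both comparisons, and the remaining 1, *Actc1*, the cardiac actin, fell in *Mtm1* KO (log2 fold change -2.88 ± 0.39, adjusted p = 0.00329). *Myl4*, the embryonic light chain, had a log2 fold change of 3.70 ± 0.20 in *Mtm1* KO (adjusted p = 7.99e-05), and *Myh8*, the perinatal myosin heavy chain, one of 2.60 ± 0.18 (adjusted p = 2.14e-04). *Myog*, a regulator of fiber differentiation, rose by 1.95 ± 0.16 on the log2 scale (adjusted p = 4.00e-04), *Chrna1*, a subunit of the acetylcholine receptor, by 2.20 ± 0.22 (adjusted p = 8.37e-04) and *Tnnt2*, the cardiac troponin T, by 1.86 ± 0.19 (adjusted p = 9.13e-04). The summed RPKM of the 9 markers was 536 to 1003 in *Mtm1* KO and 2576 to 5682 in WT, a sum that *Actc1* dominates. Of 8 satellite cell markers 3 were higher and 5 lower in *Mtm1* KO, 1 was called, *Calcr*, a receptor of quiescent satellite cells (log2 fold change -4.55 ± 0.70, adjusted p = 0.00521), and the summed RPKM of the list was 49.7 to 63.2 in *Mtm1* KO and 29.9 to 33.1 in WT, with no overlap. In treated mice 2 were higher, 6 lower and 0 called (summed RPKM 41.9 to 55.6 and 29.9 to 40.1). All marker sums are RPKM and carry the same scaling shift. Whether satellite cells or these fiber states have a part in the filament genes was not tested. The 8 myofiber markers, such as *Ckm* and *Acta1*, were present in every library, with a summed RPKM of 61171 to 69955 in *Mtm1* KO and 86066 to 101786 in WT. Of these 0 were called in untreated mice, and *Myh4*, *Pvalb* and *Ckm* fell in treated mice (log2 fold changes -1.24 ± 0.16, -1.004 ± 0.18 and -0.87 ± 0.18). Of 8 Schwann cell markers 6 were higher in untreated and 7 in treated mice, and 0 were called. Their summed RPKM was 104 to 132 in *Mtm1* KO and 59.8 to 144 in WT, and 116 to 188 and 99.3 to 112 in treated mice. Of 9 smooth muscle and pericyte markers 3 were higher in untreated and 5 in treated mice, and 1 was called, *Abcc9* in treated mice (-0.73 ± 0.14). Of 6 tendon markers 5 were higher in untreated and 3 in treated mice, and *Thbs4* alone was called (1.19 ± 0.15 and 1.45 ± 0.18). The summed RPKM of the tendon list was 246 to 457 in *Mtm1* KO and 144 to 188 in WT, and 283 to 359 and 128 to 198 in treated mice.

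In the nucleus, *Lmna* (chromosome 3, 88480147 to 88509956, minus strand) rose. It was at 24.6, 22.5 and 24.2 RPKM in WT and at 51.8, 62.7 and 62.7 in *Mtm1* KO, a log2 fold change of 1.00 ± 0.13 (adjusted p = 0.00244). In treated mice it was at 25.6, 19.2, 23.8 and 24.3 RPKM in WT + TAM and at 57.3, 56.6, 81.9 and 50.5 in *Mtm1* KO + TAM, a log2 fold change of 1.12 ± 0.15 (adjusted p = 8.27e-04). The groups did not overlap in either comparison. The call in untreated mice was lost without WT 2 (adjusted p = 0.0132), WT 4 (0.0150) or KO 11 (0.0117), and in treated mice it held with any 1 library left out. Counts per gene do not tell lamin A from lamin C. *Lmnb1* and *Lmnb2*, the B-type lamins, were not called, with log2 fold changes of -0.68 ± 0.24 (adjusted p = 0.0929) and -0.33 ± 0.18 (adjusted p = 0.253) in *Mtm1* KO.

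*Plec*, which encodes the crosslinker plectin, was not called. It was at 26.6, 26.1 and 30.8 RPKM in WT and at 33.4, 30.5 and 28.6 in *Mtm1* KO, with overlap, and had a log2 fold change of -0.16 ± 0.13 (adjusted p = 0.438). In treated mice the log2 fold change was -0.14 ± 0.11 (adjusted p = 0.397). With library size as the only scaling both values turned positive, so no direction is given.

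**Figure D4:**
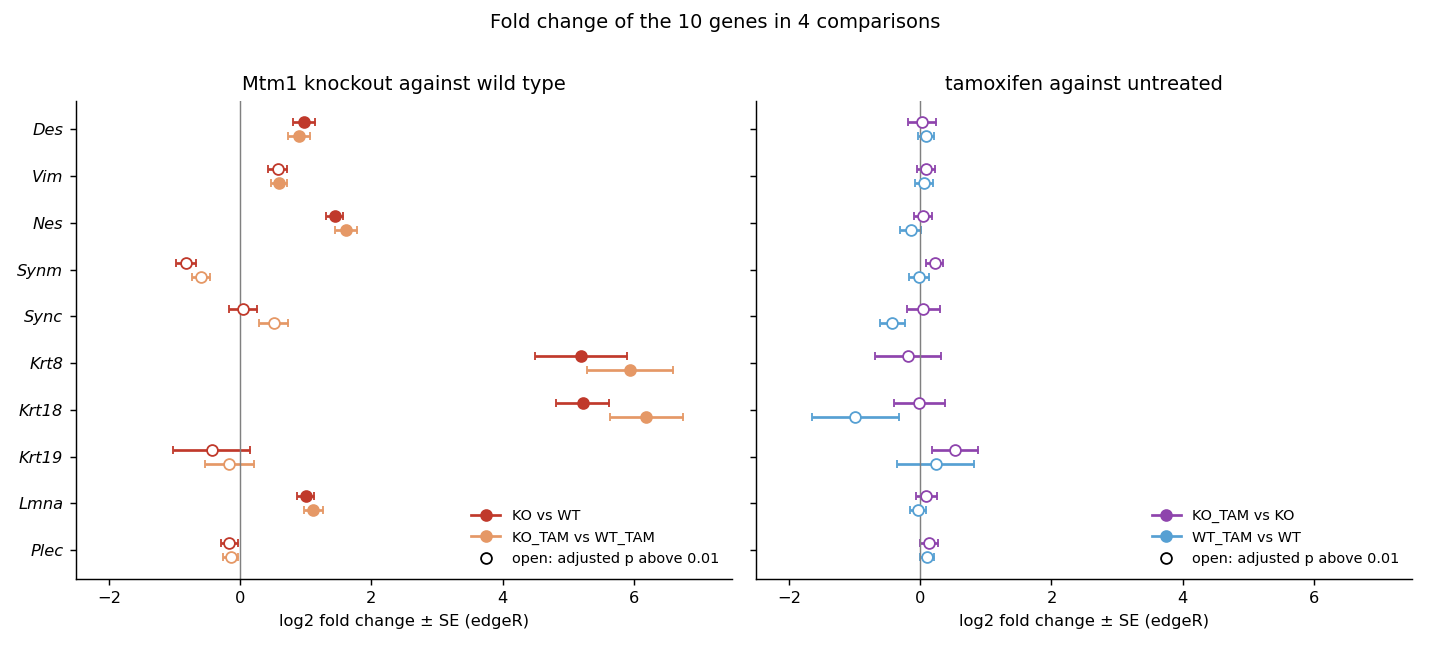
Log2 fold change ± SE (horizontal axis) of the 10 genes from edgeR's quasi-likelihood test, for the deletion without and with tamoxifen (left) and for tamoxifen in each genotype (right). Filled points passed an adjusted p of 0.01. *Krt8* and *Krt18* stand between 5.19 and 6.19 on the left, 0 points are filled on the right, and *Krt8* in wild type was below the count filter.

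Partners of desmin in muscle were then counted from a list of 24 genes. In *Mtm1* KO 4 of 24 tested were called as higher and 3 as lower, with a median log2 fold change of -0.08 beside 0.02 over all genes. In treated mice 2 of 23 were called as higher and 3 as lower. By sign alone 10 were higher and 14 lower in untreated mice, and 7 and 16 in treated mice. *Mtm1*, the deleted gene, is 1 of the 3 in each comparison and is in the totals below. Of all genes 3.6% were called in untreated and 6.72% in treated mice. Over all the lists of other filament genes, partners and regulators together, 10 genes were called in untreated mice, 3 to 5 when any 1 library was left out and 2 with all 16 libraries. In treated mice they numbered 7, and 2 to 7 with 1 library left out. The genes that rose were *Cryab* (log2 fold change 1.57 ± 0.16, adjusted p = 8.80e-04) and *Hspb1* (1.27 ± 0.14, adjusted p = 0.00131), small heat shock proteins that bind desmin filaments, *Flnc* (0.81 ± 0.14, adjusted p = 0.00862), a Z disc filamin, and *Bag3* (0.72 ± 0.12, adjusted p = 0.00809), a cochaperone of filamin turnover. *Cryab* and *Hspb1* rose in treated mice too (1.40 ± 0.22 and 1.42 ± 0.25, adjusted p = 0.00214 and 0.00360). Of the genes that fell 1 was *Mtm1* itself, listed because myotubularin binds desmin, with -2.56 ± 0.17 in untreated and -2.52 ± 0.20 in treated mice. The others in untreated mice were *Ank1* (-1.31 ± 0.18, adjusted p = 0.00344), whose small muscle form links the sarcoplasmic reticulum to the myofibril, and *Capn3* (-0.94 ± 0.15, adjusted p = 0.00614), the muscle calpain. *Capn3* fell in treated mice too (-0.70 ± 0.12, adjusted p = 0.00344).

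**Figure D5:**
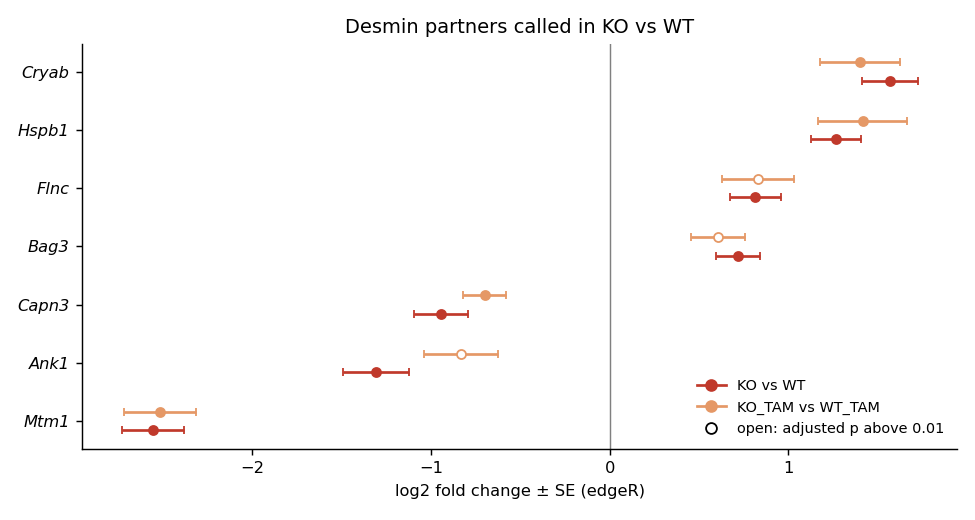
Log2 fold change ± SE (horizontal axis) of the 7 desmin partners called in *Mtm1* KO against WT, in that comparison and in *Mtm1* KO + TAM against WT + TAM, ordered by the first. Filled points passed an adjusted p of 0.01, and *Cryab* (1.57) lies at the upper end and *Mtm1* (-2.56) at the lower end, with each gene on the same side of 0 in both comparisons.

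The other structures held few calls, as did all genes (3.6% and 6.72%), and nothing is read from their number. Of 8 plakin and desmosome genes tested *Macf1*, a spectraplakin that links actin and microtubules, rose in *Mtm1* KO (log2 fold change 0.66 ± 0.11, adjusted p = 0.00806), and 0 of 8 were called in treated mice. By sign 5 were higher and 3 lower in untreated mice, and 3 and 5 in treated mice. *Pkp3* had larger fold changes, 4.09 ± 0.81 (adjusted p = 0.0139) and 2.76 ± 0.65 in treated mice (adjusted p = 0.0158), and missed the threshold. It was low, at 0.233 to 0.520 RPKM in *Mtm1* KO and 0 to 0.040 in WT, and at 0.176 to 0.921 and 0.021 to 0.074 in treated mice. Of 18 genes of the nuclear envelope and of the LINC complex, which joins it to the cytoskeleton, 1 fell in each comparison. These were *Syne2*, which encodes nesprin-2 (-0.74 ± 0.13, adjusted p = 0.00754), in untreated mice and *Tor1aip1*, a lamin-binding membrane protein (-0.64 ± 0.12, adjusted p = 0.00545), in treated mice. Of 13 kinases and regulators of filaments *Prkca*, protein kinase C alpha, fell in *Mtm1* KO (-1.03 ± 0.15, adjusted p = 0.00463) and 0 were called in treated mice. Of 10 further intermediate filament genes 4 were tested in each comparison and 0 called.

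The last question was whether tamoxifen moved these genes. In *Mtm1* KO + TAM against *Mtm1* KO 0 of the 10 were called, as were 0% of all 15062 genes tested by edgeR, of which 1137 had an unadjusted p below 0.05 and DESeq2 called 72. The log2 fold changes ran from -0.19 (*Krt8*, SE 0.50) to 0.52 (*Krt19*, SE 0.35), with a median of 0.07 and a lowest adjusted p of 0.784. An unadjusted p below 0.05 was reached by 0 of the 10, and DESeq2 and limma called 0 too. For every gene the treated and untreated KO libraries overlapped in RPKM. *Krt18*, at 13.2, 41.4, 24.6 and 10.5 RPKM in *Mtm1* KO + TAM, spread on both sides of its untreated values, and the SE of 0.39 leaves room for changes of that order in either direction.

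In WT + TAM against WT 0 of the 9 genes tested were called, beside 0.131% of all genes, and *Krt8* did not pass the count filter. The log2 fold changes ran from -0.99 (*Krt18*, SE 0.66) to 0.23 (*Krt19*, SE 0.59), with adjusted p values from 0.461 upward. An unadjusted p below 0.05 was reached by *Sync* alone (0.0465), and DESeq2 and limma called 0. The difference between the tamoxifen effects in *Mtm1* KO and in WT, tested as an interaction, was called for 0 of the 10 genes and 0% of all 15556 tested by edgeR, of which 664 had an unadjusted p below 0.05 and DESeq2 called 12. An unadjusted p below 0.05 was reached by 0 of the 10, and DESeq2 and limma called 0 of the 10. These tests do not show that tamoxifen left the genes as they were.

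The libraries left out would have changed some values. The library labelled WT 1 held *Des* at 1060 RPKM, *Nes* at 20.0 and *Lmna* at 35.2, between the WT and KO groups, and *Synm* at 45.2 and *Sync* at 1.49, below both. Its *Krt8* (2 counts) and *Krt18* (8 counts) were within the WT range. The library labelled KO 12 held the highest *Des* (2495 RPKM), *Nes* (65.3) and *Krt18* (42.3) of all libraries, *Sync* at 3.28 and *Vim* at 93.7, the latter within the WT range. With both added, 3 of the 10 genes were called in *Mtm1* KO against WT, *Krt18* (log2 fold change 5.70, adjusted p = 4.46e-04), *Krt8* (5.61, adjusted p = 0.00282) and *Nes* (1.38, adjusted p = 0.00934). *Des* (0.91, adjusted p = 0.105) and *Lmna* (0.85, adjusted p = 0.0643) kept their direction and were not called.

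For 4 genes the 3 genes with the most similar log2 CPM over the 7 KO and KO + TAM libraries were taken from 10296 genes, as a description. The libraries share scaling and treatment groups, and no chance level was computed for this search. For *Krt18* they were *2210013O21Rik* (r = 0.994), *Cpne2* (0.986) and *Cd151* (0.986). For *Des* they were *Nol3* (0.999), *Polr2e* (0.982) and *Dnajc2* (0.976), for *Nes* *Zufsp* (0.988), *Arfgap3* (0.987) and *Tyk2* (0.985), and for *Synm* *Vps36* (0.998), *Ep300* (0.986) and *Pcmt1* (0.984).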

How the data were processed

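Per the authors, reads of quadriceps RNA (TruSeq kit, 1 µg of total RNA) were aligned to GRCm38 with STAR and counted on genes with HTSeq, and the deposited raw counts are whole numbers with no scaling. The submitters' processing notes list STAR 2.5.0c, bcl2fastq 2.17 and Cufflinks 2.2.1. The deposited RPKM values followed count over library total with 1 factor per gene (largest relative deviation 4.86e-04 over 6680 genes). The sources used here do not give the annotation, the mode or strand of counting, or gene lengths. Scripts read all 32 value columns, and identical counts were found in 0 of 120 library pairs.

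The 14 libraries of the paper (WT 2 to 4, WT + TAM 5 to 8, KO 9 to 11, KO + TAM 13 to 16) were the main set. Groups were compared in pairs with R 4.3.3 and edgeR 4.0.16 on all genes that passed filterByExpr (minimum count 10, minimum total 15), with TMM, its quasi-likelihood test and adjustment by Benjamini-Hochberg over all genes tested, called at an adjusted p of at most 0.01, and the tamoxifen effects were set against each other by an interaction contrast over 4 groups. The SE of a fold change is its size over the root of the F statistic. Ratios and correlations used two-sided exact permutation tests over libraries, correlations on log2 CPM with a prior count of 2. For correlations with all 16 libraries the permutations were drawn at random, so those p values are estimates. The script was tested on simulated data. Each library is 1 mouse, and the total counts of 25116179 to 29847222 make counting error small except for genes with few counts, such as *Krt8* and *Krt18* in WT, *Krt19* in all groups and *Mtm1* in KO. Alternatives were DESeq2 1.42.0, limma 3.58.1 on log2 of RPKM plus 0.1 or plus 1, other scalings and filters, 1 fit of all groups, a threshold of 0.05, all 16 libraries, and leaving out single libraries.

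The members and lists were chosen with earlier results of these data known. Named genes are all members, *Mtm1*, and called genes of the lists (at most 5 a list by lowest p). The 3 most similar genes were taken among genes with a mean log2 CPM of at least 2. Markers at or near 0, other epithelial and mesothelial markers, *Actc1*, *Flnc*, *Bag3*, *Pkp3*, *Ttc23*, *Rbbp4* and the B-type lamins were named after their values were seen. Some genes of the desmin partner list are counted but not reported by name here. Promoters and positions are RefSeq (GRCm38.p6) and GENCODE vM21 sequence and annotation.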

Additional observations from a re-analysis of the deposited data

Results flagged for a closer look

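Of 40 groups of 4 libraries (10 genes in 4 groups, the libraries labelled WT 1 and KO 12 included), 5 held a library whose gap to its nearest neighbor, divided by the group's range, exceeded Dixon's 95% critical value for 4 samples. Chance flags about 1 in 20 such groups. In the library labelled WT 1 these were *Nes* (20.0 RPKM), *Lmna* (35.2 RPKM) and *Sync* (1.49 RPKM), in WT 2 *Vim* (94.1 RPKM), and in WT 4 *Krt8* (0.663 RPKM). The values are thus in 3 WT libraries, and 3 of the 5 are in the library whose *Mtm1* count goes against its label.

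The libraries outside the comparisons held values above every WT library of the main set. In the library labelled WT 1 these were *Des* (1060 RPKM), *Nes* (20.0), *Lmna* (35.2), *Plec* (32.5) and *Krt19* (1.54). In the library labelled KO 12 they were *Des* (2495 RPKM), *Nes* (65.3), *Krt8* (15.3), *Krt18* (42.3), *Lmna* (70.1) and *Plec* (36.2). For all of these genes but *Plec* and *Krt19* the untreated KO libraries compared also lay above every WT library compared. Against those KO libraries the *Krt8* of KO 12 was within their range and the other KO 12 values listed were above it. What set these libraries apart was not tested.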

How the results depend on the processing

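No paired analysis was made, since the sample information used here names no litter and the groups share no replicate number. The tests treated the mice as independent, though per the study they were littermates. Calls for *Des*, *Lmna* and *Vim* lie near the threshold and groups hold 3 or 4 mice. The members called in *Mtm1* KO against WT numbered 5, 7 with DESeq2 and at a threshold of 0.05, 6 with upper quartile or library size scaling, no filter, 1 fit or limma (0.1 added), 4 with at least 10 counts in every library, 3 with all 16 libraries, and 2 to 5 with 1 library left out (3 without WT 2, 3 without WT 4, 2 without KO 11). In treated mice they numbered 6, and 4 to 7 under all alternatives. Members called for tamoxifen or the interaction numbered 0 under each alternative. The *Synm* to *Des* log2 difference in treated mice was -1.64 to -1.32 with 1 library left out, each with an exact permutation p of 0.0571, the smallest that 3 against 4 allow. The correlation of *Krt8* and *Krt18* in KO was 0.961 with all 16 libraries (permutation test on random draws, adjusted p = 0.00576). With all 16, r was 0.0724 for *Krt18* and *Krt19* in KO and 0.684 for *Des* and *Nes* in WT, both with the opposite sign. It was -0.85 for *Des* and *Synm* in WT and -0.85 for *Vim* and *Nes* in KO. These last values had an adjusted p of 0.0455 each in a permutation test on random draws.

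Genes of the pathway lists called in *Mtm1* KO against WT numbered 10, 17 at a threshold of 0.05, 18 with DESeq2, 2 with all 16 libraries and 3 to 5 with 1 library left out. In treated mice they numbered 7, 22 at 0.05, 19 with DESeq2, 12 with library size scaling, 13 with no filter, 14 in 1 fit of all groups, 11 with limma at either pseudocount and 2 to 7 with 1 library left out. Over all genes, 531 were called in *Mtm1* KO against WT and 979 in treated mice, 1678 and 1995 with DESeq2, 1163 and 1874 with library size scaling, and 824 and 1695 (0.1 added) or 756 and 1616 (1 added) with limma. Those in *Mtm1* KO against WT were 1096 with no filter, 987 in 1 fit, 211 with all 16 libraries and 182 to 363 with 1 library left out, and those in treated mice 424 to 921 with 1 library left out. Tamoxifen calls in WT were 19, 214 with DESeq2, 81 with no filter, 39 in 1 fit, 12 with all 16 libraries and 2 to 21 with 1 library left out, and those in *Mtm1* KO were 0, 72 with DESeq2, 12 with no filter and 2 in 1 fit. Genes with small values changed sign. In *Mtm1* KO against WT the log2 fold change of *Sync* was -0.12 to 0.29 with 1 library left out, that of *Krt19* was 0.0411 with limma (0.1 added), and that of *Plec* was 0.15 with library size scaling and 0.15 and 0.14 with limma. In treated mice *Krt19* was at 0.12 with library size scaling, 0.23 and 0.0800 with limma, and -0.43 to 0.17 with 1 library left out, and *Plec* at 0.14, 0.13 and 0.13 in the same order. The causes were not tested.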
